A study of Mus musculus with 6 samples.

Results

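Transcripts of 8 genes were followed in whole mouse brain at E18.5, shortly before birth: the 3 vesicular glutamate transporters Slc17a6, Slc17a7 and Slc17a8, and 5 transcription factors that mark the developing thalamus, Tcf7l2, Gbx2, Lhx9, Lef1 and Rora. They were picked by name among the 55359 annotated mouse genes in the tables, and all 8 reached the mean level of 1 TPM (a transcript's share of its library, corrected for transcript length) needed for testing, as did 18893 genes in all. The S156A group had 3 libraries from embryos carrying PME-1 with alanine at position S156, and the WT group had 3 libraries from wild-type embryos. PME-1 is the methylesterase that acts on the catalytic subunit of protein phosphatase 2A, and S156 is its catalytic serine. Each library held RNA of 3 brains combined in 1 tube, so the replicates are separate pools, and how much single embryos vary is not known. Whether the S156A embryos carried 1 or both mutant alleles, and the strain, sex and litters, were not stated in what was read here. The labels name no promoter, Cre line or tissue to which the change was limited.

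Glutamate released at synapses is first loaded into vesicles by a transporter of the SLC17 family. In the rodent brain VGLUT2, made from Slc17a6, serves mostly thalamic, hypothalamic, midbrain and hindbrain neurons, VGLUT1, made from Slc17a7, serves mostly cortical and hippocampal neurons, and VGLUT3, made from Slc17a8, is found in scattered groups of neurons that often release another transmitter as well. Tcf7l2 and Lef1 encode DNA-binding partners of beta-catenin in Wnt signalling, and Tcf7l2 is kept on in thalamic and habenular neurons. Gbx2 and Lhx9 encode homeodomain proteins of thalamic neurons, and Rora encodes a nuclear receptor of thalamic neurons that is also strong in cerebellar Purkinje cells.

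The stretches just upstream of the annotated starts of Slc17a6 and Slc17a7 are shown because these transporters serve subcortical and cortical neurons, and because Slc17a6 varied between libraries much as Tcf7l2 did by coverage, though less so by TPM. Each is 250 bases long and written 5′ to 3′ on the strand of the gene, from RefSeq on GRCm38.p6. The first start of Slc17a6 has chr7:51621580-51621829 (plus strand), the second has chr7:51624387-51624636 (plus strand), and Slc17a7 has chr7:45163671-45163920 (plus strand). Capitals mark the letters TAATTA, a core read by many homeodomain proteins, and CTTTGT, a core of the TCF/LEF motif.
Slc17a6, first start: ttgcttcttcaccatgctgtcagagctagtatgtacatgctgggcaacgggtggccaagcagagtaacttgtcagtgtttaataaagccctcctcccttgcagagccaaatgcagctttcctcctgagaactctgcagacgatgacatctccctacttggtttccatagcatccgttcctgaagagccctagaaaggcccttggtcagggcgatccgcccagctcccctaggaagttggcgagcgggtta
Slc17a6, second start: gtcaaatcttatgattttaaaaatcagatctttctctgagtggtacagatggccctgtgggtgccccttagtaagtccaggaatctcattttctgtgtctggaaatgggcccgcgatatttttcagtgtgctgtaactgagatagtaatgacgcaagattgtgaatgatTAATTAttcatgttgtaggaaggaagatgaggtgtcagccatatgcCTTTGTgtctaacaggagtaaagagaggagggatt
Slc17a7: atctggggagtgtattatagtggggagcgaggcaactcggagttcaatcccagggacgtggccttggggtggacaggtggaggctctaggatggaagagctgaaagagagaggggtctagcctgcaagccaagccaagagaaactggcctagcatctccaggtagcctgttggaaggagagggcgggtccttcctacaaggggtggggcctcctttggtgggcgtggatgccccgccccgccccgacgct
A second TCF/LEF core, spelled CTTTGA, and the core read by ROR receptors, spelled AGGTCA, were searched along with them. All 4 motifs were searched on both strands, and the homeodomain core reads the same on both. The second Slc17a6 window held 1 homeodomain core and 1 TCF/LEF core, which do not overlap, and the first Slc17a6 window and the Slc17a7 window held 0 of the 4 motifs. Among 32851 such windows of mouse genes, 16.5% held the TCF/LEF core ending in T, 13.8% the one ending in A, 14% the ROR core and 4.84% the homeodomain core. The windows of Gbx2, Rora, the first Tcf7l2 and Slc17a8 starts and Lef1 starts 1 to 3 also held 0 of the 4. The Lhx9 window held 2 copies of the TCF/LEF core ending in T and the window of the second Tcf7l2 start held 1. The window of the fourth Lef1 start held 1 copy of that core and 2 of the one ending in A, and that of the second Slc17a8 start held 1 homeodomain core. These are matches of letters in short windows, and no binding was measured.

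Slc17a6 had the smallest unadjusted p of the 8: S156A brains held 48.5% of the WT mean, while Slc17a7 stood at 84.0% of it. Tcf7l2 and Gbx2 were at 55.7% and 57.0% of the WT mean. All 8 genes were lower in S156A, against 38.3% of all tested genes with a difference below 0. By limma, 0 of the 8 passed an adjusted p under 0.05, a threshold that 0.159% of the 18893 tested genes passed. At an unadjusted p under 0.05, 4 of the 8 were lower in S156A (Slc17a6, Gbx2, Tcf7l2 and Lef1), and 5.5% of all tested genes were. In 3 of the 8 (Slc17a6, Gbx2 and Lef1) every S156A library lay below every WT library, as in 7.05% of all tested genes. In whole-brain RNA, fewer cells of a type and less RNA per cell cannot be told apart.

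Estimated depth was 3.24 to 4.14 aligned gigabases in S156A libraries and 3.15 to 3.37 in WT libraries. Acta1, the actin of skeletal muscle, set S156A replicate 1 apart at 2611 TPM and WT replicate 3 at 2472 TPM, against 8.22 to 333 TPM in the other 4. The 8 muscle markers summed to 48.0 to 7433 TPM in S156A and 15.4 to 6726 TPM in WT. Of 10 oligodendrocyte-lineage genes 8 were higher in S156A and 1 was called by TPM, against 61.7% and 0.159% of all tested genes. Their summed levels were 317 to 438 TPM in S156A and 245 to 284 TPM in WT. Of the 5 listed pituitary genes the 2 that were tested, Cga and Gh, were higher with 0 called, and the list summed to 133 to 315 TPM in S156A and 0.36 to 102 TPM in WT. The part of these in the results on the 8 genes was not tested.

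**Figure D1:**
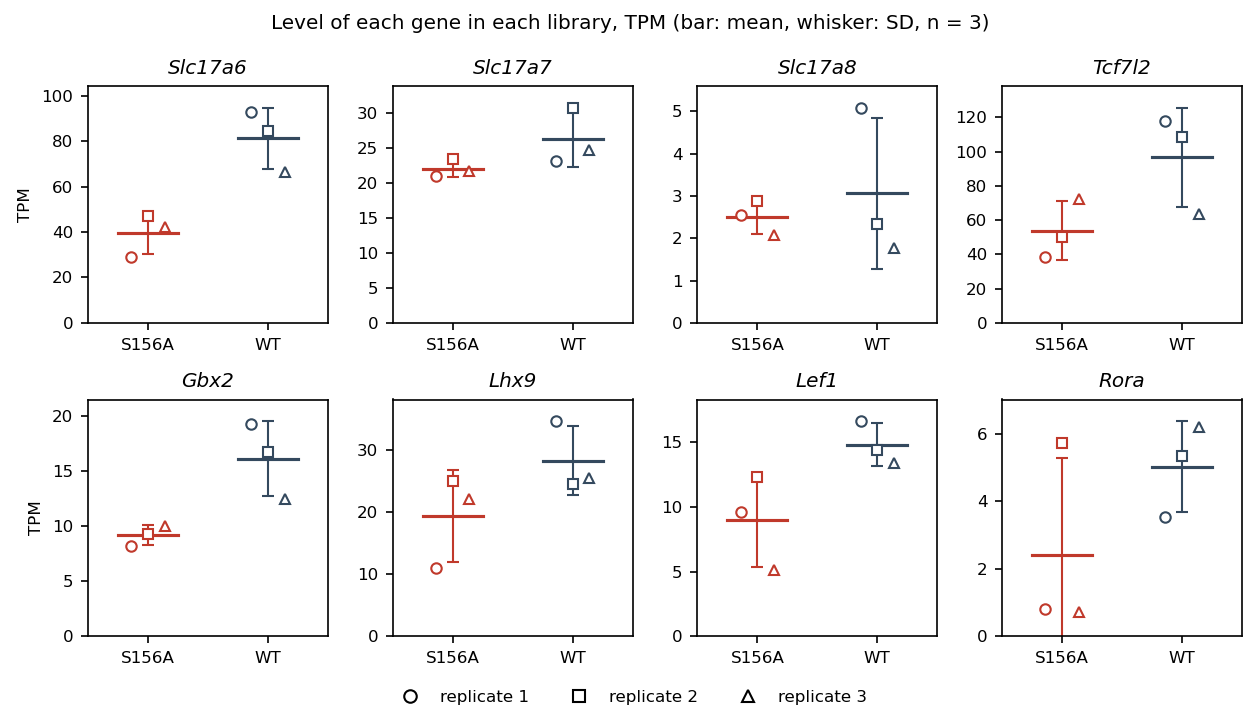
TPM of each of the 8 genes in each library, S156A left and WT right, with 1 point per library, a bar at the mean and a whisker for the SD (n = 3; the lower whisker of S156A Rora runs below 0 and is cut at the axis). The S156A points of Slc17a6, Gbx2 and Lef1 lie below all WT points, and those of the other 5 genes overlap them.

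Slc17a6 (ENSMUSG00000030500.7, chromosome 7, 51271754 to 51320867, plus strand, in the coordinates of the tables) had 29.1, 47.1 and 42.1 TPM in S156A replicates 1 to 3, against 93.0, 84.3 and 66.6 TPM in WT replicates 1 to 3. The highest S156A library lay below the lowest WT library, and in each group the lowest library was the one rich in Acta1. The means were 39.4 ± 9.26 TPM in S156A and 81.3 ± 13.5 TPM in WT (SD, n = 3 each). The difference on log2(TPM + 1) was -1.04 (SE 0.21, 95% interval -1.52 to -0.56, limma adjusted p = 0.11). It was -0.98 without the 2 libraries with the most Acta1 (limma adjusted p = 0.086). When limma gave each library a weight by its estimated variability, the adjusted p was 0.035 at nearly the same difference, and 309 of all genes were called in that fit.

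Slc17a7 (ENSMUSG00000070570.6, chromosome 7, 44813373 to 44825566, plus strand) had 21.1, 23.5 and 21.7 TPM in S156A replicates 1 to 3, against 23.2, 30.8 and 24.8 TPM in WT replicates 1 to 3. The groups overlapped, and the 3 S156A libraries were closer to each other than the WT libraries were. The means were 22.1 ± 1.27 TPM in S156A and 26.3 ± 4.02 TPM in WT (SD, n = 3 each). The log2 difference of -0.23 had a 95% interval of -0.58 to 0.11 (limma adjusted p = 0.52), so a difference as large as that of Slc17a6 lies outside this interval, while no difference and one of -0.58 do not.

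Slc17a8 (ENSMUSG00000019935.17, chromosome 10, 89409882 to 89457115, minus strand) was the rarest of the 3 transporters by TPM. It had 2.55, 2.88 and 2.08 TPM in S156A replicates 1 to 3, against 5.09, 2.33 and 1.76 TPM in WT replicates 1 to 3. WT replicate 1 stood above all other libraries and the rest were mixed. The log2 difference was -0.13 (SE 0.34, limma adjusted p = 0.90), and without WT replicate 1 it was 0.20.

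The ratio of Slc17a6 to Slc17a7 sets the mostly subcortical transporter against the mostly cortical one within a library, where library scaling cancels. Which cells held these transcripts at E18.5 was not measured. By TPM the ratio was 1.38, 2.00 and 1.94 in S156A replicates 1 to 3, against 4.005, 2.73 and 2.68 in WT replicates 1 to 3. Every S156A library lay below every WT library. On the log2 scale, with 1 TPM added to each gene, the ratio differed by -0.81 (exact permutation test, two-sided, p = 0.1, the smallest that 3 against 3 libraries allow). Slc17a6 made up 55.2%, 64.1% and 63.9% of the summed TPM of the 3 transporters in S156A replicates 1 to 3, against 76.7%, 71.8% and 71.5% in WT replicates 1 to 3. The sum of the 3 was 52.7 to 73.4 TPM in S156A and 93.2 to 121 TPM in WT, so the groups did not overlap in the total either.

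The same separation held against RNA of neurons in general. Relative to the mean of 8 pan-neuronal genes, Slc17a6 lay at -2.80 ± 0.09 log2 units in S156A and -1.91 ± 0.10 in WT (SD, n = 3 each), a difference of -0.90 (exact permutation p = 0.1, the smallest possible). Slc17a7 differed by -0.09 on this scale (exact permutation p = 0.8), and Slc17a8 by 0.01 (exact permutation p = 1). Among the thalamic factors the difference by TPM was -0.59 for Gbx2, -0.69 for Tcf7l2, -0.44 for Lhx9, -0.59 for Lef1 and -0.97 for Rora, with groups apart for Gbx2, Lhx9 and Lef1. By coverage share it was -0.50 for Gbx2, -0.71 for Tcf7l2, -0.25 for Lhx9, -0.05 for Lef1 and 0.03 for Rora, with groups apart for Gbx2 and Tcf7l2. How often the groups lay apart over all genes was not computed on this scale. The pan-neuronal genes themselves were lower in 6 of 8 cases, against 38.3% of all tested genes, with a median of -0.23 and 0 called. Rbfox3, the NeuN antigen of mature neurons, had a log2 difference of -0.37 and Stmn2, a tubulin-binding protein of growing axons, -0.52. Ina, a neurofilament subunit, had -0.41 and Dcx, a protein of migrating neurons, 0.34.

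**Figure D2:**
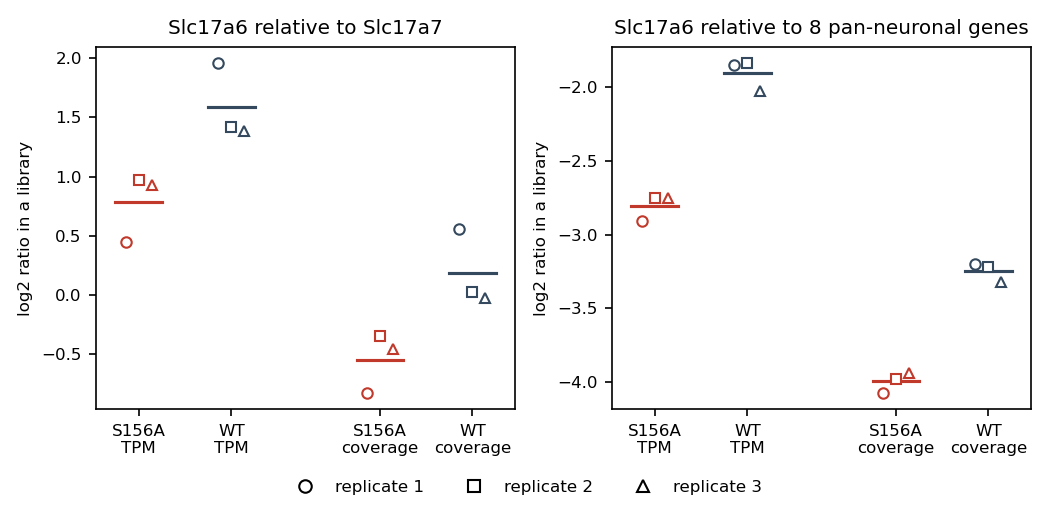
Log2 ratio of Slc17a6 to Slc17a7 (left panel) and to the mean of 8 pan-neuronal genes (right panel) in each library, by TPM and by coverage, S156A left of WT, with a bar at the mean of 3 libraries. In both panels and by both measures the S156A points lie below all WT points, by 0.81 and 0.90 log2 units on average for TPM.

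Tcf7l2 (ENSMUSG00000024985.21, chromosome 19, 55730252 to 55922086, plus strand) was the most abundant of the 8 by TPM in 5 of 6 libraries. It had 38.6, 50.5 and 72.6 TPM in S156A replicates 1 to 3, against 118, 109 and 63.8 TPM in WT replicates 1 to 3. S156A replicate 3 lay above WT replicate 3, so the groups overlapped. The means were 53.9 ± 17.3 TPM in S156A and 96.8 ± 29.0 TPM in WT (SD, n = 3 each), or -0.83 on the log2 scale (SE 0.29, limma adjusted p = 0.30). Without the 2 libraries with the most Acta1 the groups lay apart and the difference was -0.89 (limma adjusted p = 0.14). In that setting 3346 of the 18893 tested genes had groups apart with S156A lower, against 1332 with all 6 libraries.

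Gbx2 (ENSMUSG00000034486.9, chromosome 1, 89855678 to 89858901, minus strand) had 8.23, 9.29 and 10.05 TPM in S156A replicates 1 to 3, against 19.2, 16.7 and 12.5 TPM in WT replicates 1 to 3. The S156A libraries lay close together and below all WT libraries. The means were 9.19 ± 0.91 TPM in S156A and 16.1 ± 3.41 TPM in WT (SD, n = 3 each), which makes -0.73 on the log2 scale (SE 0.20, limma adjusted p = 0.20). A non-coding gene on the opposite strand, D130058E05Rik, overlaps it at up to 5.65 TPM, and since the strand setting of the counting is not given here, the low values of Gbx2 are less certain.

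Lhx9 (ENSMUSG00000019230.15, chromosome 1, 138752924 to 138776315, minus strand) had 11.0, 24.95 and 22.1 TPM in S156A replicates 1 to 3, against 34.6, 24.5 and 25.5 TPM in WT replicates 1 to 3. S156A replicate 1 was low and WT replicate 1 was high, and the other 4 libraries lay close together. The log2 difference was -0.58 (SE 0.30, limma adjusted p = 0.44), and -0.30 without the 2 libraries with the most Acta1.

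Lef1 (ENSMUSG00000027985.15, chromosome 3, 130904120 to 131018005, plus strand) had 9.60, 12.2 and 5.10 TPM in S156A replicates 1 to 3, against 16.6, 14.3 and 13.4 TPM in WT replicates 1 to 3. All S156A libraries lay below all WT libraries, with S156A replicate 3 lowest. The log2 difference was -0.73 (SE 0.29, limma adjusted p = 0.34). The antisense gene Lef1os1 overlaps Lef1 at up to 4.49 TPM, so its low values carry the same uncertainty about strand.

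Rora (ENSMUSG00000032238.18, chromosome 9, 68561068 to 69295528, plus strand) had 0.80, 5.72 and 0.71 TPM in S156A replicates 1 to 3, against 3.55, 5.34 and 6.19 TPM in WT replicates 1 to 3. S156A replicate 2 lay among the WT libraries, and the other S156A libraries stood far below it. The spread within S156A exceeded the group mean (2.41 ± 2.87 TPM, against 5.03 ± 1.35 TPM in WT; SD, n = 3 each). The log2 difference of -1.11 had an SE of 0.54 (limma adjusted p = 0.42).

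In order of TPM the 8 genes formed 4 pairs that kept their rank in every library. Tcf7l2 and Slc17a6 were the upper pair throughout, and their order turned only in WT replicate 3. Lhx9 and Slc17a7 came next and exchanged places between libraries in both groups. Lef1 and Gbx2 followed and Slc17a8 and Rora came last, again with no fixed order within either pair.

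The tables also give the mean read depth per base of each gene, called coverage here, and rows for loci assembled from the reads apart from the annotation. For a gene with several transcripts, TPM depends on how reads are divided among them, and Rora and Lef1 showed that the measures can part. In most libraries Rora had a ratio of coverage to FPKM of 0.57 to 0.81, but in S156A replicates 1 and 3 it was 3.87 and 4.14, the commonest ratio over genes in those libraries. Those are the same libraries in which its TPM was 0.80 and 0.71. Lef1 had a ratio of 0.84 in S156A replicate 3, its lowest library by TPM, and 0.27 to 0.29 in the other 5. GENCODE M21 lists 22 transcripts of Tcf7l2, 8 of Lef1, 7 of Lhx9, 6 of Rora, 5 of Slc17a7, 4 of Slc17a6, and 2 each of Gbx2 and Slc17a8.

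Coverage per aligned gigabase of Rora was 0.27, 0.30 and 0.25 in S156A replicates 1 to 3, against 0.30, 0.35 and 0.38 in WT replicates 1 to 3. Every S156A library lay below every WT library by this measure, but barely, the nearest at 0.303 and 0.304. How often the groups lay apart over all genes was not computed for coverage per gigabase. The S156A mean was thus 80.0% of the WT mean by coverage and 48.0% by TPM, and 97.1% by the assembled loci overlapping Rora. On the scale of coverage shares, where the coverage of all annotated genes is brought to the same sum in every library, the log2 difference of Rora was -0.17 (limma adjusted p = 0.77). On that scale the groups overlapped, with S156A replicate 2 at 1.55 and WT replicate 1 at 1.39. Rora thus differed less by coverage and by assembled loci than by TPM. Coverage of Lef1 per gigabase was 0.24, 0.33 and 0.36 in S156A replicates 1 to 3, against 0.46, 0.40 and 0.38 in WT replicates 1 to 3, and its difference in coverage share was -0.25 (limma adjusted p = 0.64).

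**Figure D3:**
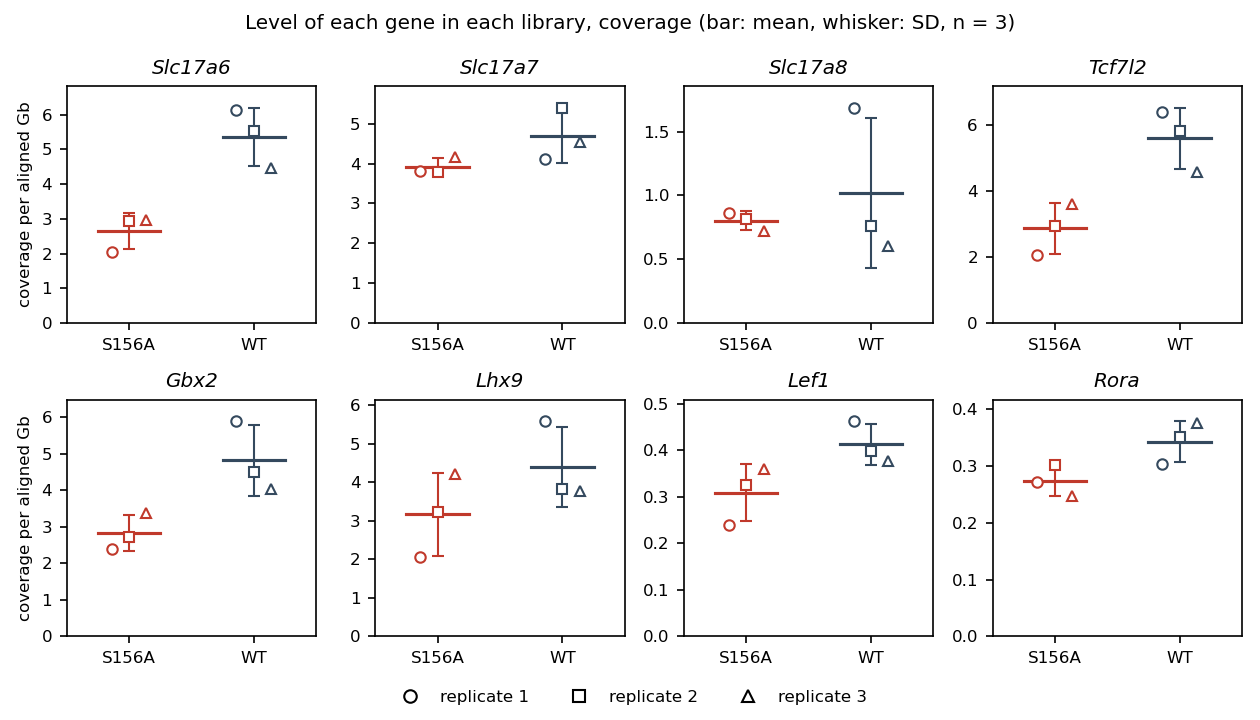
Coverage of each of the 8 genes per aligned gigabase in each library, S156A left and WT right, with 1 point per library, a bar at the mean and a whisker for the SD (n = 3). Slc17a6 and Tcf7l2 show S156A libraries of 2.06 to 3.61 below WT libraries of 4.47 to 6.41, and the S156A points of Rora, at 0.248 to 0.303, lie just below its WT points, at 0.304 to 0.375.

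Slc17a6, Tcf7l2 and Gbx2 differed by similar amounts in coverage and in TPM. Slc17a6 had a coverage per gigabase of 2.06, 2.92 and 2.97 in S156A replicates 1 to 3, against 6.12, 5.52 and 4.47 in WT replicates 1 to 3. For Tcf7l2 it was 2.06, 2.95 and 3.61 in S156A replicates 1 to 3, against 6.41, 5.84 and 4.58 in WT replicates 1 to 3. The overlap that Tcf7l2 had by TPM was absent by this measure. In coverage share the log2 difference was -0.94 for Slc17a6 (limma adjusted p = 0.13), -0.91 for Tcf7l2 (limma adjusted p = 0.16) and -0.70 for Gbx2 (limma adjusted p = 0.18). Of the 8 genes 0 were called in coverage share, against 0.189% of the 20068 genes tested there. In 4 of them (Slc17a6, Tcf7l2, Gbx2 and Lef1) the groups lay apart with S156A lower, against 7.04% of all genes.

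Slc17a7 had a coverage per gigabase of 3.83, 3.79 and 4.17 in S156A replicates 1 to 3, against 4.10, 5.41 and 4.55 in WT replicates 1 to 3. The ratio of Slc17a6 to Slc17a7 by coverage was 0.54, 0.77 and 0.71 in S156A replicates 1 to 3, against 1.49, 1.02 and 0.98 in WT replicates 1 to 3. Its level is lower than by TPM in every library, so which transporter is the more abundant depends on the measure, while the lower ratio in S156A does not. The log2 ratio differed by -0.73 in coverage share (exact permutation p = 0.1, the smallest possible).

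**Figure D4:**
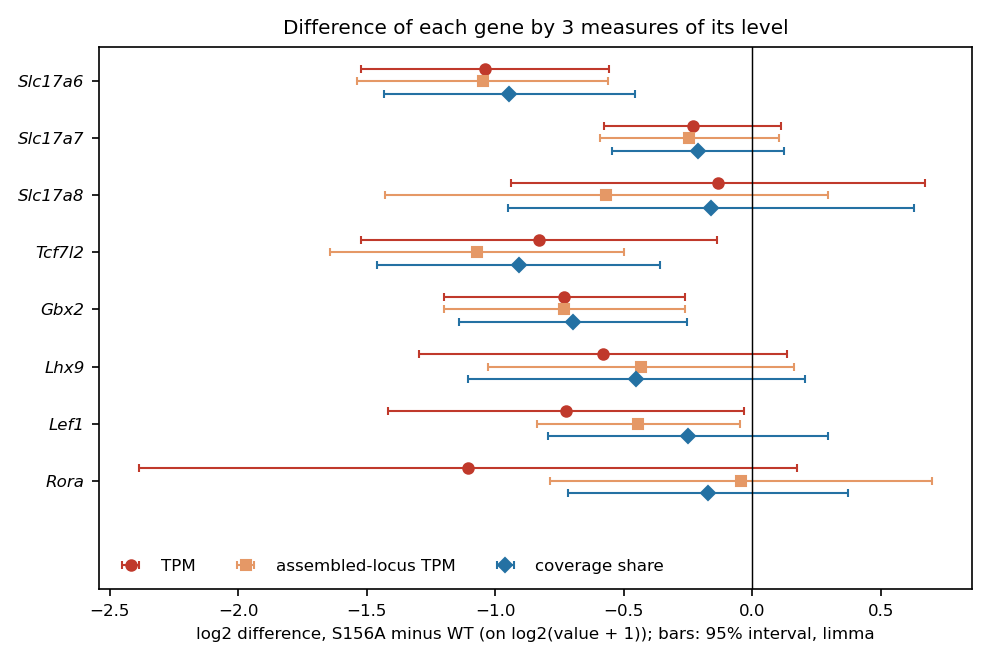
Log2 difference, S156A minus WT, of each of the 8 genes by TPM, by TPM of the overlapping assembled loci and by coverage share, with 95% intervals from limma. The 3 estimates lie between -1.05 and -0.94 for Slc17a6 and between -0.24 and -0.21 for Slc17a7, and for Rora they run from -1.11 to -0.04.

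Within libraries, Tcf7l2 followed Slc17a6 closely by coverage. The ratio of Tcf7l2 to Slc17a6 was 1.00, 1.01 and 1.22 in S156A replicates 1 to 3, against 1.05, 1.06 and 1.02 in WT replicates 1 to 3. The root mean square difference of their centred log2(coverage share + 1) over the 6 libraries was 0.09, against 0.43 between Slc17a6 and Slc17a7. Gbx2 lay 0.17 from Slc17a6 by the same measure and Lhx9 0.31. Rora and Lef1 lay nearer to Slc17a7 by this measure, at 0.12 and 0.17. Their mean shares were only 1.29 and 1.45 in S156A and 1.58 and 1.90 in WT. At such levels the added 1 flattens a profile, so their place by this measure is uncertain. By TPM the order was another one: Slc17a6 lay 0.22 from Gbx2, 0.26 from Tcf7l2 and 0.47 from Slc17a7, and Lef1 lay 0.43 from both transporters. These are descriptions over 6 libraries that share depth and the Acta1 difference.

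Over 12178 genes with a mean of at least 5 TPM, those whose centred log2(TPM + 1) was closest to Slc17a6 over the 6 libraries were Tmem163 (root mean square difference 0.05), Cend1 (0.08) and Fam131c (0.08). Tmem163 had 9.62, 14.8 and 13.6 TPM in S156A replicates 1 to 3, against 32.0, 27.3 and 20.7 TPM in WT replicates 1 to 3. Near Slc17a7 were Slc25a22 (0.04) and Kcnf1 (0.06), with Slc25a22 at 64.6 to 75.7 TPM in S156A and 74.0 to 103 TPM in WT. Closest to Tcf7l2 were Kcnip2 (0.12), Cbln2 (0.14) and Caly (0.14). Because these genes were chosen on all 6 libraries, group difference included, their differences follow from the choice and are given as a description. The 3 nearest Slc17a6 had log2 differences of -1.03 to -0.995, the 3 nearest Tcf7l2 -0.86 to -0.74, and Slc25a22 and Kcnf1 had -0.27 each.

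Other genes of the thalamus were lower in 9 of 14 cases, against 38.3% of all tested genes, and 0 were called. Their median log2 difference was -0.17, against 0.09 over all tested genes. The 9 include Tnnt1 and Synpo2, named after their values were seen, both highest in the 2 libraries with the most Acta1. Tnnt1 had 64.7 TPM in S156A replicate 1 and 38.8 TPM in WT replicate 3, against 0.27 to 4.38 TPM in the other libraries. Ntng1, a membrane protein of thalamocortical axons, averaged 9.66 ± 0.64 TPM in S156A and 21.5 ± 2.7 TPM in WT (SD, n = 3 each), a log2 difference of -1.07 (limma adjusted p = 0.064). Calb2, the calcium buffer calretinin, averaged 51.6 TPM in S156A and 104 TPM in WT. Cacna1g, a T-type calcium channel subunit of relay neurons, averaged 38.7 TPM in S156A and 70.0 TPM in WT. Slitrk6, a synaptic adhesion protein, averaged 1.75 TPM in S156A and 3.94 TPM in WT, and in all 4 of these genes the groups lay apart, against 7.05% of all tested genes. Those 4 were also the ones lower at an unadjusted p under 0.05, against 5.5% of all tested genes. The remaining 10 had differences in both directions, and 5 of the 14 were higher. Among these, named after their values were seen, Foxp2 had 1.36 by TPM but -0.05 by coverage share, and Lhx2 had 0.42.

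Habenular neurons border the thalamus and also use VGLUT2. Of 8 genes of the habenula 7 were lower in S156A, against 38.3% of all tested genes, with a median of -0.20 and 0 called. Of these 3 had an unadjusted p under 0.05, against 5.5% of all tested genes in that direction. The 7 include Nhlh2 at -0.00018 and Chrnb4 at -0.037, named after their values were seen. By coverage share 6 of the 8 were lower, and Nhlh2 had 0.046. Tac1, the precursor of substance P, averaged 30.3 TPM in S156A and 57.1 TPM in WT (log2 difference -0.88, limma adjusted p = 0.094). Pou4f1, a homeodomain protein of habenular neurons, averaged 6.65 TPM in S156A and 12.8 TPM in WT, and Gpr151, a receptor of habenular axons, 0.81 TPM in S156A and 2.30 TPM in WT. Tac2, the neurokinin B precursor, averaged 6.16 TPM in S156A and 3.79 TPM in WT with overlapping groups.

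Genes of the rostral thalamus and prethalamus, where most neurons make GABA, were lower in 3 of 9 cases, near the 38.3% of all tested genes. Their median of 0.09 equalled that of all tested genes. The homeodomain gene Nkx2-2 had a log2 difference of 0.56 and the LIM-homeodomain gene Isl1 0.51, both above 0. The signal Shh had -0.27 and the homeodomain gene Six3 0.18, and 0 of the 9 had an unadjusted p under 0.05.

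Genes of other glutamatergic neurons differed in direction between subcortical and cortical lists. Of 10 tested genes of other subcortical glutamatergic neurons 8 were lower in S156A, against 38.3% of all tested genes. Their median was -0.59 and 0 were called. Fezf1, a zinc-finger factor of the hypothalamus, averaged 3.36 TPM in S156A and 6.63 TPM in WT, and Lmx1b, a LIM-homeodomain factor of midbrain and hindbrain, 5.50 TPM in S156A and 8.70 TPM in WT. Evx1, a factor of spinal and hindbrain interneurons, had a log2 difference of -1.09. Of 14 genes of cortical glutamatergic neurons 12 were higher in S156A, against 61.7% of all tested genes, with a median of 0.44 and 0 called. Of these 6 had an unadjusted p under 0.05 in that direction, against 8.41% of all tested genes. Neurod2, a helix-loop-helix factor of cortical neurons, had a log2 difference of 0.75, Tbr1, a factor of deep-layer neurons, 0.62 and Fezf2, a factor of corticospinal neurons, 0.55. Nrgn, a calmodulin-binding protein of maturing forebrain neurons, went the other way at -0.60. Slc17a7, which cortical neurons use, thus had a difference below 0 while 12 of the 14 genes of those neurons had one above 0.

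**Figure D5:**
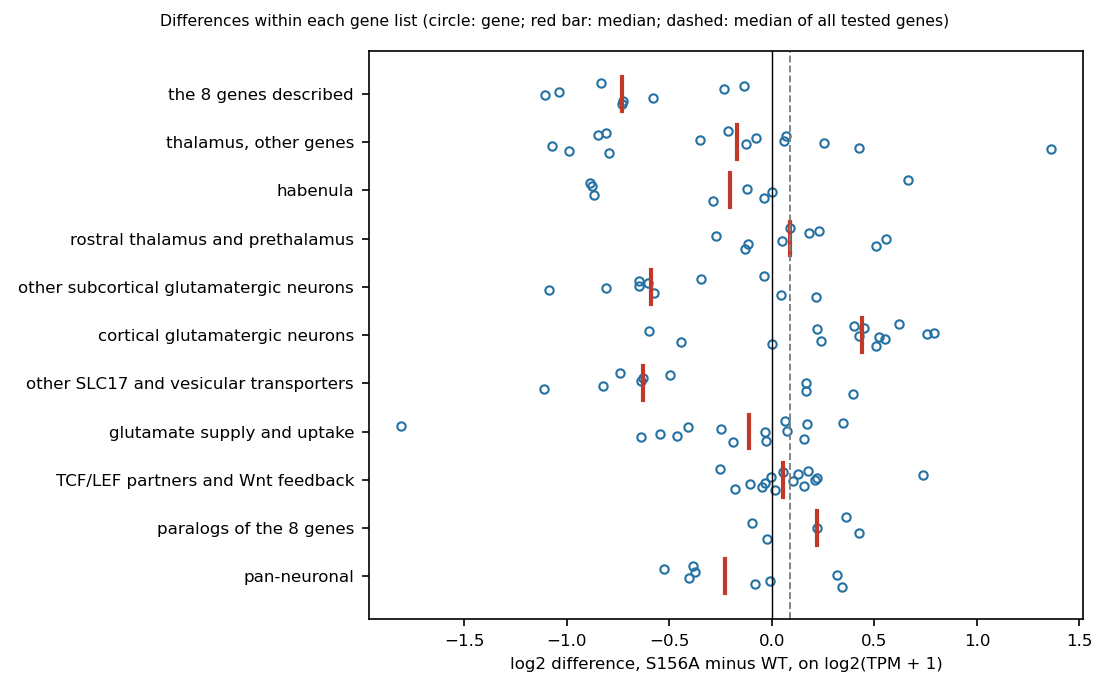
Log2 difference on log2(TPM + 1), S156A minus WT, of each tested gene in 11 lists, with a red bar at the median of the list and a dashed line at the median of all tested genes (0.09). The medians are -0.73 for the 8 genes described, -0.59 for other subcortical glutamatergic neurons and 0.44 for cortical glutamatergic neurons.

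Other transporters and proteins of synaptic vesicles were mostly lower in S156A. Of 9 tested genes of other SLC17 and vesicular transporters 6 were lower, all at an unadjusted p under 0.05, against 5.5% of all tested genes, with a median of -0.63 and 0 called. The other SLC17 genes tested, Slc17a5 and Slc17a9, named after their values were seen, had log2 differences of 0.40 and 0.17. Slc32a1, the vesicular GABA transporter, averaged 67.5 TPM in S156A and 106 TPM in WT (log2 difference -0.64, limma adjusted p = 0.11). Slc18a2, the vesicular monoamine transporter, averaged 7.13 TPM in S156A and 16.7 TPM in WT, and the vesicle proteins Sv2a and Sv2c had log2 differences of -0.63 and -0.74. Genes of glutamate supply and uptake had a median of -0.11 over 14 tested genes, and 0 were called. Of these 9 were lower, against 38.3% of all tested genes. Got1 and Got2, the aspartate aminotransferases, had -0.64 and -0.46, Slc1a6, the glutamate transporter of Purkinje cells, had -1.81 by TPM and -1.04 by coverage share, and Slc38a2, a glutamine carrier, had 0.35. Of 7 Purkinje markers 6 were lower in S156A, against 38.3% of all tested genes.

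Genes that act with Tcf7l2 and Lef1 in Wnt signalling were mixed. Of 15 tested genes of TCF/LEF partners and Wnt feedback 6 were lower and 9 higher, near the 38.3% and 61.7% of all tested genes. Their median was 0.05, against 0.09 over all tested genes, and 0 had an unadjusted p under 0.05. Ctnnb1, which encodes beta-catenin, averaged 577 ± 45 TPM in S156A and 516 ± 16 TPM in WT (SD, n = 3 each). Rnf43 and Znrf3, ubiquitin ligases that remove Wnt receptors, had log2 differences of 0.74 and -0.25, and the beta-catenin cofactor Bcl9 had -0.18. Among 5 tested paralogs of the 8 genes, the median was 0.22. Tcf7l1 and Tcf7, of the family of Tcf7l2 and Lef1, had 0.36 and -0.10, Lhx2, a relative of Lhx9, had 0.42, and Rorb, a relative of Rora, had 0.22.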

How the data were processed

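The deposited tables, 1 per library, are StringTie gene abundance tables, per the file headers. The deposited TPM and FPKM values (fragments scaled by transcript length and library size) are normalized by the authors, and the deposited coverage signal holds unnormalized mean depths of each gene, per the file headers. The submitters' processing notes name StringTie 2.1.5, HISAT2 2.2.1 and Trim Galore 0.6.6. The strand setting of the counting is not given in the sources read, and libraries were made with a directional kit, per the labels' protocols. The notes name hg38, but the rows are mouse genes. Of the 8 genes 0 start within 1000 bases of their GRCm38 position, so coordinates are as in the tables, except promoter windows on GRCm38.p6. Each table lists annotated genes and assembled loci, and only annotated genes entered the fits, apart from the assembled-locus alternative. The TPM column lists both kinds of row, each scaled to the library, so it sums to more than the library total. The annotated genes sum to 93.1% to 95.8% of the sum over the assembled loci. No counts are given, so no counting interval can be set, and depth was estimated from the commonest ratio of coverage to FPKM, held by 13.2% to 13.8% of rows with FPKM above 10.

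Genes averaging at least 1 TPM were tested on log2(TPM + 1) with limma 3.58.1 in R 4.3.3 (eBayes with trend, no covariate, two-sided, Benjamini-Hochberg over all tested genes, called under 0.05). Differences are on that scale, or on log2(coverage share + 1) for coverage shares, and the added 1 understates changes of low genes. Single ratios were compared by exact permutation. The 8 genes and all lists were chosen with earlier results of these data known, and coverage share after seeing the data. All 8 were named, then from each list the 4 tested genes with the smallest unadjusted p, and for Slc17a6, Slc17a7 and Tcf7l2 the 3 genes most like each; a few of these are not reported here. The alternatives were FPKM, other pseudocounts (0.1 and 5), a filter at 5 TPM or none, scaling by an unweighted trimmed mean or by quantiles, TPM without haemoglobin, mitochondrial and ribosomal RNA genes, eBayes made robust or without trend, library weights, a replicate block, and leaving out each library or the 2 with the most Acta1.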

Additional observations from a re-analysis of the deposited data

How the results depend on the processing

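Against 30 genes called (16 higher, 14 lower in S156A), limma called 75 with trimmed-mean scaling (17 higher, 58 lower), 52 with quantile normalization (16 higher, 36 lower), 37 with FPKM (13 higher, 24 lower), 309 with library weights (127 higher, 182 lower) and 16 with eBayes without trend. It called 0 with no filter (3364 at an unadjusted p under 0.05) and 0 without the 2 libraries with the most Acta1 (3141 unadjusted), or 4 by coverage share. With 1 library left out the count ran from 0 to 70: 70 without WT replicate 3, 2 without WT replicate 1, 1 without S156A replicate 1, and 0 without WT replicate 2, S156A replicate 2 or S156A replicate 3 (1542, 2275 and 2041 unadjusted). The replicate block gave 0 (1880 unadjusted), with a limma adjusted p of 0.36 for Slc17a6. For the ratio of Slc17a6 to Slc17a7, exact permutation within the 3 same-numbered pairs gave p = 0.25, the smallest that 3 pairs allow. Whether the shared numbers pair the libraries is not known. Same-numbered deviations from the group means correlated at -0.55, 0.19 and -0.41. Those of S156A replicate 1 and WT replicate 3, the libraries with the most Acta1, correlated at 0.65. Deviations that carry the Acta1 difference cannot show whether a pairing exists.

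Slc17a6 passed with library weights alone (-1.05, limma adjusted p = 0.035), and its difference lay between -1.18 and -0.84 over 22 alternatives, with adjusted p from 0.035 to 0.40. For Tcf7l2 the range was -1.10 to -0.62, for Gbx2 -0.89 to -0.56, for Slc17a7 -0.33 to -0.12, for Lhx9 -0.79 to -0.24, for Lef1 -0.97 to -0.19 and for Rora -1.75 to -0.04. Slc17a8 turned to 0.20 without WT replicate 1 and ranged from -0.57 to that value (-0.37 to 0.20 with 1 library left out). Slc17a8 and Rora gave no value at a mean TPM of at least 5. The cause of these changes was not tested. Depth cannot be turned into counting error here, which limits Slc17a8 and Rora most.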

Other observations

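Of the marker lists of other cells, 7 endothelial genes had a median log2 difference of 0.11, against 0.09 over all tested genes. Of these 6 were higher in S156A, against 61.7% of all tested genes. Cldn5, a tight-junction protein of brain vessels, averaged 153 TPM in S156A and 110 TPM in WT, and the list summed to 274 to 296 TPM in S156A and 203 to 261 TPM in WT. Among the oligodendrocyte-lineage genes Gpr17, a receptor of newly formed oligodendrocytes, rose to 31.8 TPM in S156A, against 12.6 TPM in WT (log2 difference 1.28, limma adjusted p = 0.046). Bcas1, a marker of early myelinating cells, had a log2 difference of 2.48 by TPM (limma adjusted p = 0.053, and 0.039 by coverage share), and Enpp6, an enzyme of newly formed oligodendrocytes, had 1.56. Erythroid genes summed to 17112 to 24281 TPM in S156A and 10025 to 22254 TPM in WT. By TPM, Gpr17 was the only gene called among the 16 lists described beside the 8 genes. Those lists held 143 tested genes, and 0.159% of all tested genes were called. By coverage share 2 of 10 oligodendrocyte-lineage genes were called, against 0.189% of all genes tested there.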
